A study of Mus musculus with 6 samples.

Results

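The 9 genes described here handle glutamine, ammonia and bicarbonate in the kidney: Slc38a3, Pck1, Glud1, Slc9a3, Slc4a4, Car2, Car4, Car12 and Car14. They were taken by symbol, 9 of 24422 gene symbols counted, and all 9 were measured in every library. They were chosen from results of the comparison below, so their differences are given as values and support nothing by themselves. Test calls for them are listed only beside the shares over all genes, and nothing is read from those calls. Poly-A RNA was sequenced from whole C57BL/6 mouse kidneys at postnatal day 13, with 3 Control libraries (labelled wild type) and 3 TfR1 knockout libraries (labelled Tfr1f/f;SixCre). Both groups were on a diet with 220 ppm iron. In the TfR1 knockout, floxed exons 3 and 4 of the transferrin receptor gene were deleted with Six2Cre, which is active in the progenitors of nephrons but not in the ureteric bud that forms the collecting duct, and the study describes cells that escaped deletion. The study compared its models with wild-type littermates, and in other experiments at the same age it calls TfR1f/f littermates wild type. Neither the labels nor the methods used here say whether the mice of these Control libraries carried floxed alleles. The comparison asked which transcripts differ when the receptor is deleted from the nephron lineage. At about this age the study describes cysts, fewer proximal and thick ascending limb tubules, and kidney failure in this knockout. How far these changes enter the values below was not tested.

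The proximal tubule answers an acid load by taking up glutamine, splitting off its nitrogen as ammonium for the urine, and returning new bicarbonate to the blood. The carbon skeleton that remains, alpha-ketoglutarate, can be turned into glucose through phosphoenolpyruvate carboxykinase. Sodium-proton exchange at the luminal membrane, sodium-bicarbonate cotransport at the basolateral membrane and carbonic anhydrases inside and outside the cell together recover filtered bicarbonate. Several of these genes are also used elsewhere: Car2 is abundant in intercalated cells, and Car12 is made in the collecting duct.

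Total counts ran from 16591156 to 22898008 per library, and values below are normalized counts (read counts divided by DESeq2 size factors) unless stated. No pair of libraries agreed within counting noise. The study counts its replicates as mice, so each library is taken as a separate mouse, although the labels themselves only number the kidneys. Tfrc, the targeted gene, had 5534, 6485 and 3667 normalized counts in the Control libraries and 6976, 4045 and 5898 in the TfR1 knockout libraries. These values overlapped, with a log2 fold change of 0.11 (SE 0.29, DESeq2 adjusted p = 0.853) whose sign changed without Control replicate 3 or TfR1 knockout replicate 1, and a count over all exons does not check a deletion of exons 3 and 4. Control replicate 3 was the lowest Control library for 9 of the 9 genes, against 43.9% of all genes tested.

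Promoter windows from RefSeq (GRCm38.p6, 250 bases before to 50 after a start site) were found for 7 of the 9 genes, in 8 windows. Slc38a3 and Car2 have none printed here. The windows of Pck1 and Car4 are shown because they belong to the gene with the second-largest fold change upward and to the only gene that was lower without overlap between groups. In the first, capitals mark ATTAAC (the reverse complement of GTTAAT, a core of HNF1 sites) and CGTCA (the reverse complement of TGACG, the core of the cAMP response element). No searched letters were found in the second.
Pck1, GRCm38.p6 chr2:173152823-173153122, plus strand: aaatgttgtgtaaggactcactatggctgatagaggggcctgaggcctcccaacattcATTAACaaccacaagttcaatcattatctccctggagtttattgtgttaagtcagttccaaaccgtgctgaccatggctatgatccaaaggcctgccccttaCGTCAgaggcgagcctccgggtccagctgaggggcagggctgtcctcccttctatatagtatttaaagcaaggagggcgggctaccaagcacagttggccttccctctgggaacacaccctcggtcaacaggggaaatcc
Car4, GRCm38.p6 chr11:84957504-84957803, plus strand: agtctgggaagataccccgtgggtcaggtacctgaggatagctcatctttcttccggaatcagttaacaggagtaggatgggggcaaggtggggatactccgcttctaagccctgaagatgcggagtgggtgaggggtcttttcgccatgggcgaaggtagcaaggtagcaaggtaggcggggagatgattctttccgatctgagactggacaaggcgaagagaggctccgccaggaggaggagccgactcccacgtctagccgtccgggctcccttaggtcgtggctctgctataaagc

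Both strands were searched for 5 sets of letters, and Pck1 was the only one of the 7 genes with a match. Counted from the start site, its TGACG match lay at -90 and its GTTAAT match at -192. Of 32851 promoter windows, 20.8% held TGACG and 7.10% held GTTAAT. The full cAMP response element TGACGTCA, of which TGACG is a part, was in 1.79% of windows, the C/EBP-ATF composite TGATGNAAT in 0.965% and the HNF4 element CAAAGTCCA in 0.475%, and in no window of these genes. A match describes the letters and not a bound site. For Slc4a4, 2 windows were listed, with a GC content of 80% and 48.3%, and counts per gene do not separate transcripts from different starts.

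Slc38a3 had the largest difference of the 9 genes. It encodes SNAT3, the basolateral transporter that exchanges protons for sodium and glutamine, and lies at mm9 chromosome 9, 107552970 to 107569705, minus strand. Control libraries held 413, 523 and 227 normalized counts (in the order of replicates 1, 2 and 3, as throughout), and the knockout libraries held 10100, 13248 and 9341. All 3 knockout libraries lay far above all 3 Control libraries. The group means were 388 ± 149 and 10896 ± 2072 (mean ± SD, n = 3 each), a 28.1-fold difference and a log2 fold change of 4.81 (SE 0.32). In a whole kidney, more cells of a type and more RNA per cell cannot be told apart, nor can fewer cells and less RNA. The plot of counts by library shows this gene beside the other members of the group.

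Pck1 (mm9 chromosome 2, 172978549 to 172984774, plus strand) encodes the cytosolic phosphoenolpyruvate carboxykinase that commits glutamine carbon to glucose. Its normalized counts were 27010, 33371 and 19947 in Control and 88960, 171509 and 88676 in the knockout. The groups did not overlap, and TfR1 knockout replicate 2 stood well above the other knockout libraries. The means were 26776 ± 6715 and 116382 ± 47742 (SD, n = 3 each), a 4.35-fold difference. The log2 fold change was 2.12 (SE 0.33), and 1.73 without TfR1 knockout replicate 2.

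Glud1 (mm9 chromosome 14, 35123913 to 35158330, plus strand) encodes mitochondrial glutamate dehydrogenase, which releases the second nitrogen of glutamine as ammonium. Its normalized counts were 10551, 10030 and 8027 in Control and 14530, 22628 and 15442 in the knockout, a 1.84-fold difference of the means (log2 fold change 0.88, SE 0.24). The groups were apart, and replicate 2 was again the highest knockout library. Within each library, Slc38a3 stood at 0.0399 ± 0.0119 of the Glud1 count in Control and 0.629 ± 0.0585 in the knockout, and Pck1 at 2.79 ± 0.466 and 6.48 ± 0.970 (SD, n = 3 each). The 3 genes thus differed by unequal amounts, Glud1 least.

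Slc4a4 (mm9 chromosome 5, 89315843 to 89668678, plus strand) encodes NBCe1, the cotransporter that carries bicarbonate with sodium across the basolateral membrane. Its normalized counts were 9525, 9277 and 6886 in Control and 10543, 25378 and 12173 in the knockout. The groups did not overlap, but 1 library made most of the difference. The log2 fold change was 0.90 (SE 0.35) with all libraries and 0.41 without TfR1 knockout replicate 2.

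Slc9a3 (mm9 chromosome 13, 74258963 to 74303512, plus strand) encodes NHE3, the luminal sodium-proton exchanger. Its normalized counts were 515, 629 and 274 in Control and 386, 301 and 270 in the knockout. The groups overlapped, since Control replicate 3 lay beside the knockout libraries. The log2 fold change of -0.57 (SE 0.34) had a 95% interval from -1.23 to 0.093.

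The 4 carbonic anhydrases differed in direction. Car4 (mm9 chromosome 11, 84771288 to 84779546, plus strand), which is anchored at the luminal membrane, had 1332, 1177 and 1040 normalized counts in Control and 353, 290 and 354 in the knockout. The groups were far apart and each was tight. The means were 1183 ± 146 and 332 ± 36.4 (SD, n = 3 each), a 3.56-fold lower level in the knockout (log2 fold change -1.83, SE 0.19).

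Car2 (mm9 chromosome 3, 14886426 to 14900769, plus strand), the cytosolic enzyme, had 7171, 7437 and 5737 normalized counts in Control and 11080, 8874 and 8141 in the knockout. The groups did not overlap, by a small margin, at a 1.38-fold difference (log2 fold change 0.47, SE 0.20). In each library, Car2 stood at 5.74 ± 0.506 times the Car4 count in Control and 28.3 ± 4.61 times in the knockout (SD, n = 3 each).

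Car12 (mm9 chromosome 9, 66561493 to 66614652, plus strand), a transmembrane enzyme, had 7040, 7141 and 4812 normalized counts in Control and 6646, 4391 and 4838 in the knockout. The groups overlapped, and the log2 fold change of -0.26 (SE 0.25) had a 95% interval from -0.75 to 0.23. Car14 (mm9 chromosome 3, 95701691 to 95708614, minus strand), a transmembrane enzyme of the proximal tubule, had 866, 767 and 524 normalized counts in Control and 310, 1007 and 320 in the knockout. Knockout replicates 1 and 3 were below every Control library and replicate 2 was above them all, with a log2 fold change of -0.40 (SE 0.46) that became -1.19 without TfR1 knockout replicate 2. Car14 shares 445 exon bases, 17.5% of its exon length, with Aph1a on the opposite strand, whose mean was 3061 normalized counts. The strand setting of the counting is not given in the sources used here, so reads in that stretch cannot be told apart.

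**Figure D1:**
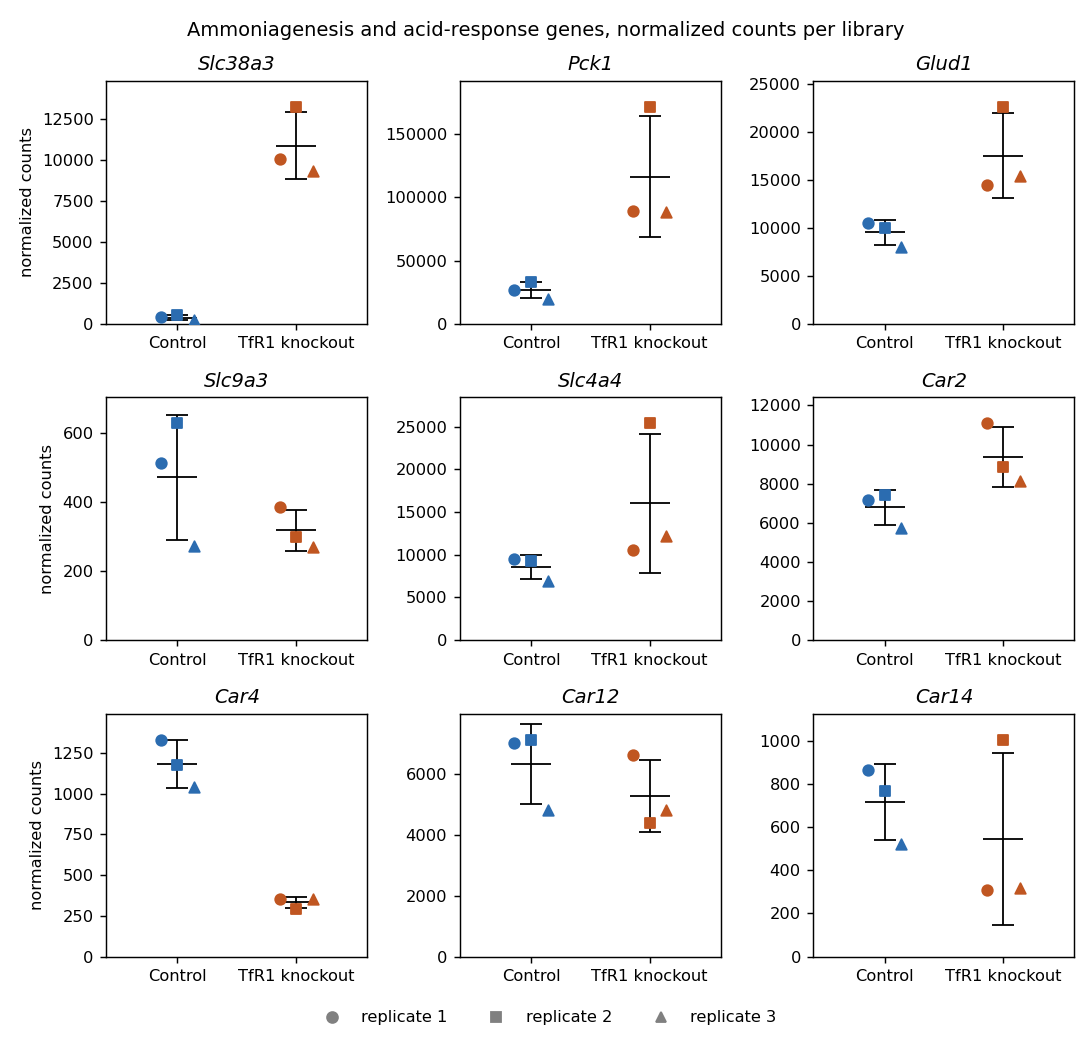
Normalized counts of the 9 genes (vertical axis, linear and starting at 0, a separate scale for each gene) in 3 Control and 3 TfR1 knockout libraries. Markers are libraries by replicate number, and bars are the mean and SD. Slc38a3, Pck1, Glud1, Slc4a4 and Car2 had every knockout library above every Control library and Car4 had every one below, while Slc9a3, Car12 and Car14 overlapped.

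Of the 9 genes, 5 were higher in the knockout without overlap between groups and 1 was lower, against 16.9% of all genes tested that were higher without overlap and 16.9% that were lower. In the DESeq2 fit, 3 of the 9 were higher at an adjusted p under 0.05 (Slc38a3, Pck1 and Glud1) and 1 was lower (Car4), where 7.74% of all 16509 genes tested were higher and 7.18% lower. In edgeR, 2 of the 9 were higher (Slc38a3 and Pck1) and 1 lower (Car4), where 3.22% of genes were higher and 2.8% lower. Nothing is read from these counts, since the choice of genes used this comparison. The median log2 fold change of the 9 was 0.47, and that of all genes tested was 0.0071. With each library left out in turn, and under every other setting tried, each of the 9 kept its sign.

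**Figure D2:**
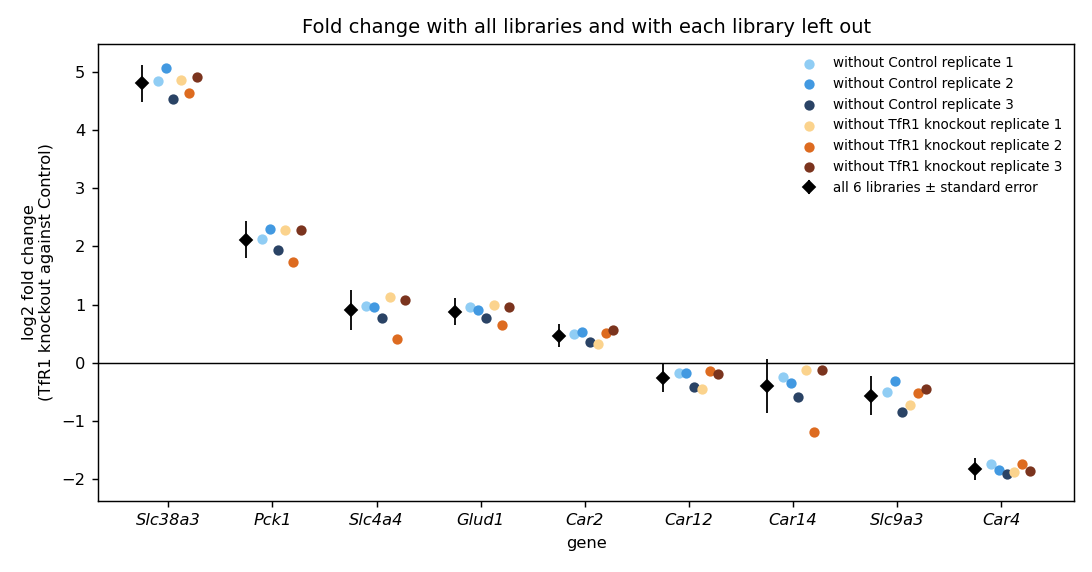
Log2 fold change of TfR1 knockout against Control (vertical axis) for the 9 genes with all 6 libraries (diamonds, with standard error) and with each library left out (dots). Slc38a3 stayed between 4.54 and 5.08 and Car4 between -1.92 and -1.74, while Slc4a4 ran from 0.41 to 1.13 and Car14 from -1.19 to -0.12.

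The genes were also set against proximal tubule markers within each library, a comparison chosen after the data were seen. The 15 markers went in both directions (Lrp2, the megalin gene, had a log2 fold change of -1.48 and the organic anion transporter Slc22a6 one of 1.79), so each marker was used in turn as the denominator. The ratio of Slc38a3 to the marker was higher in every knockout library than in every Control library for 15 of 15 markers. This count follows from the 28.1-fold difference for which the gene was chosen, and supports nothing further. The marker that rose most, Slc22a6, had a 3.46-fold difference. Against Lrp2, which was itself 2.79-fold lower in the knockout, Slc38a3 had 1.64, 1.99 and 1.76 counts per 100 Lrp2 counts in Control. The knockout libraries had 93.1, 210 and 157. Pck1 was higher without overlap for 13 of 15 markers and overlapped for 2. Glud1 was higher for 10 and lower for 2, Slc4a4 higher for 9 and lower for 2, and Car2 higher for 8 and lower for 2. Car4 was lower for 8 of 15 and higher for 3. Slc9a3 (5 higher, 4 lower), Car12 (5 higher, 3 lower) and Car14 (3 higher, 2 lower) were split. The direction of these ratios therefore depended on the marker for 7 of the 9 genes.

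Levels between genes were compared per kilobase of exon, as normalized counts per kilobase, from the GENCODE annotation of the mm9 build. In Control, Pck1 was first at 7809 ± 1958, followed by Car2 at 3791 ± 511, Glud1 at 2332 ± 326, Car12 at 1395 ± 290 and Slc4a4 at 792 ± 135 (SD, n = 3). Car4 at 602 ± 74.5, Car14 at 283 ± 69.1, Slc9a3 at 190 ± 72.7 and Slc38a3 at 115 ± 44.1 completed the order. Neighbours whose mean ± SD ranges touched were Slc4a4 with Car4, Car14 with Slc9a3, and Slc9a3 with Slc38a3. In the knockout, Slc38a3 moved from the ninth place to the fourth, at 3219 ± 612.

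For each of the 9 genes, the gene with the most similar pattern was found by Pearson r of log2(normalized count + 1) over the 6 libraries, among 12113 other genes with a mean of at least 100. The 6 libraries fall into 2 groups, so r is only a description. For Slc38a3 the nearest was Ddit3 (r = 0.998), the stress-response transcription factor CHOP. Pck1 was nearest to Ccng1 (r = 0.998), Glud1 to Fam214b (r = 1.00), Slc4a4 to Igf1r (r = 0.998), Car4 to Dnajc6 (r = 0.997), Car2 to Nsun2 (r = 0.997), Slc9a3 to Prom2 (r = 0.997), Car12 to Dnajc30 (r = 0.998) and Car14 to Bag4 (r = 0.995). As many as 29 genes reached an r of at least 0.99 with Pck1, 23 with Slc38a3, 5 with Slc9a3 or Car2 and 3 with Car14. No nearest gene was thus alone at that level.

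The other genes of the pathway were read from a list in 7 roles, 82 genes beside the 9, of which 77 were tested. There, 13 were higher and 13 lower in the knockout at a DESeq2 adjusted p under 0.05 (16.9% each, against 7.74% and 7.18% of all genes tested), 51 did not pass, and the median log2 fold change was -0.12. In edgeR, 4 of 75 were higher and 6 lower, against 3.22% and 2.8% of all genes. The list was written with earlier results known, so nothing is read from its excess over these shares, and the shares by role rest on 5 to 16 genes each.

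Among 16 genes of glutamine uptake and breakdown, 5 rose and 3 fell (31.25% and 18.75%). Slc1a5, a neutral amino acid transporter that carries glutamine, had 1795, 2019 and 1269 normalized counts in Control and 4256, 5161 and 4039 in the knockout, without overlap. It rose 2.65-fold (log2 fold change 1.40, SE 0.23, DESeq2 adjusted p = 8.48e-08, edgeR 0.0123). Gpt, an alanine aminotransferase, and the glutamine transporter Slc38a2 also rose (log2 fold changes 1.04 and 0.95, adjusted p = 0.0274 and 0.0186), and edgeR called neither. The 3 genes that fell were also amino acid carriers. Slc7a7, a basolateral exchanger, fell 3.16-fold from 2076, 1821 and 1451 normalized counts to 643, 582 and 465 (log2 fold change -1.66, adjusted p = 1.23e-11). Slc6a19, which takes neutral amino acids including glutamine from the lumen, fell in DESeq2 (log2 fold change -1.34, adjusted p = 0.0181), and so did the glutamate transporter Slc1a1 (-1.12, adjusted p = 0.0231), whose groups overlapped. edgeR called neither. Glul, glutamine synthetase, had a log2 fold change of 0.55 (SE 0.42, adjusted p = 0.42) and 1 high knockout library at 23486 normalized counts.

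**Figure D3:**
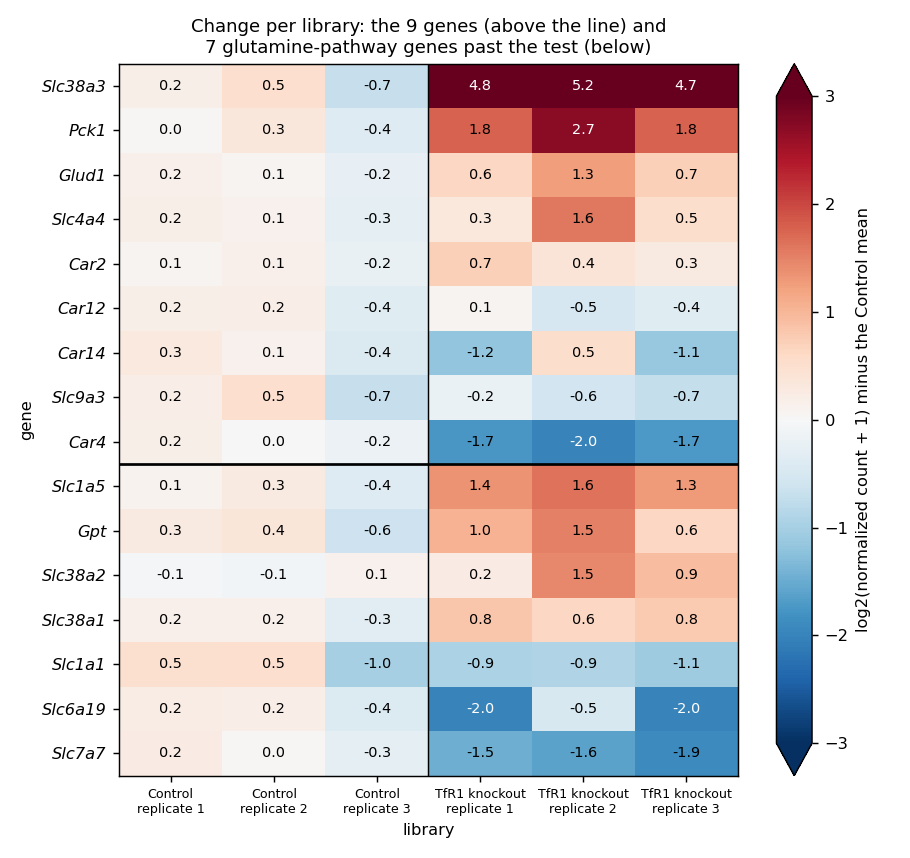
Log2(normalized count + 1) minus the Control mean (color and printed values) for the 9 genes (above the line) and for 7 of the 8 genes of glutamine uptake and breakdown that passed the DESeq2 test (below), in 6 libraries. The color scale ends at 3 in either direction. Slc38a3 is the darkest row at 4.7 to 5.2 in the knockout libraries.

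None of the 9 other genes of gluconeogenesis from glutamine passed in DESeq2 or in edgeR, and 1, Slc25a22, was higher and 0 lower at an unadjusted DESeq2 p under 0.05. G6pc, the glucose-6-phosphatase that ends the pathway, had 14404, 20812 and 17999 normalized counts in Control and 9548, 50319 and 7676 in the knockout, so the knockout libraries straddled the Control range. Slc25a22 and G6pc were picked for naming after their values were seen.

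Among 11 tested genes of ammonium and proton transport, 1 rose and 3 fell (9.09% and 27.3%). Slc12a2, a sodium-potassium-chloride cotransporter that also carries ammonium, rose 1.93-fold (log2 fold change 0.95, adjusted p = 0.000498), from 1679, 1464 and 1786 normalized counts to 2453, 3902 and 3151. Slc12a1, the thick ascending limb cotransporter that reabsorbs ammonium, fell (log2 fold change -1.19, adjusted p = 0.00617), as did the proton-potassium pumps Atp12a (-1.49, adjusted p = 0.000433) and Atp4a (-1.31, adjusted p = 0.00378). edgeR called Slc12a2 and Atp12a only. For Rhcg, the ammonia channel of the collecting duct, the log2 fold change was -0.77 (SE 0.33, adjusted p = 0.104), and it passed without Control replicate 3 (-1.03, adjusted p = 0.00320).

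Among 14 genes of bicarbonate and anion exchange, 2 rose and 4 fell (14.3% and 28.6%). The sodium-coupled bicarbonate transporters Slc4a7 and Slc4a8 rose (log2 fold changes 0.86 and 0.67, adjusted p = 0.0251 and 0.0434). Their calls were lost in 6 and 8 of 11 alternative fits. Slc4a1, the basolateral chloride-bicarbonate exchanger of intercalated cells and of red blood cells, fell from 1388, 1584 and 1245 normalized counts to 473, 180 and 600 (log2 fold change -1.75, adjusted p = 0.000249). Slc4a9 (-1.20, adjusted p = 1.10e-05), the sulfate exchanger Slc26a1 (-1.54, adjusted p = 0.0230) and pendrin, Slc26a4 (-1.18, adjusted p = 2.46e-05), also fell. edgeR called 3 of the 6, Slc4a1, Slc4a9 and Slc26a4, and the Slc26a1 groups overlapped. These 3 are in the list of 14 intercalated cell markers, of which 5 fell and 1 rose in DESeq2. The summed normalized counts of that list overlapped, at 22341 to 34727 in Control and 24298 to 29778 in the knockout.

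Of 9 other tested genes listed in the carbonic anhydrase family, 11.1% rose and 33.3% fell. Car15 alone rose (log2 fold change 0.91, adjusted p = 0.00709) and Car9, Car7 and Car8 fell (-1.69, -1.10 and -0.83, adjusted p = 3.87e-05, 0.0189 and 0.00595). Car9 is the hypoxia-responsive membrane enzyme, and its values were 139, 126 and 117 normalized counts in Control and 30.8, 57.6 and 32.2 in the knockout. It was the only one of the 4 that edgeR called.

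Of 5 partners of the NHE3 protein, Chp1 rose (log2 fold change 1.03, adjusted p = 0.0131) in DESeq2 and not in edgeR. Slc9a3r1 had a log2 fold change of 0.14 (SE 0.32, adjusted p = 0.828). Of 13 genes of acid sensing and control, 3 rose (23.1%). Edn1, endothelin-1, had 110, 132 and 135 normalized counts in Control and 452, 820 and 479 in the knockout, a 4.66-fold rise (log2 fold change 2.22, SE 0.30, adjusted p = 1.43e-11). The study lists Edn1 among targets of the hypoxia-inducible factor HIF1-alpha and reports it higher in this knockout. The cause of the rise was not tested here. The endothelin receptor Ednrb (1.33, adjusted p = 0.0236) rose in DESeq2 and not in edgeR, and its groups overlapped. The proximal tubule factor Hnf4a had a log2 fold change of -0.24 (SE 0.34, adjusted p = 0.693), and of -0.56 (adjusted p = 0.0236) without Control replicate 3.

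**Figure D4:**
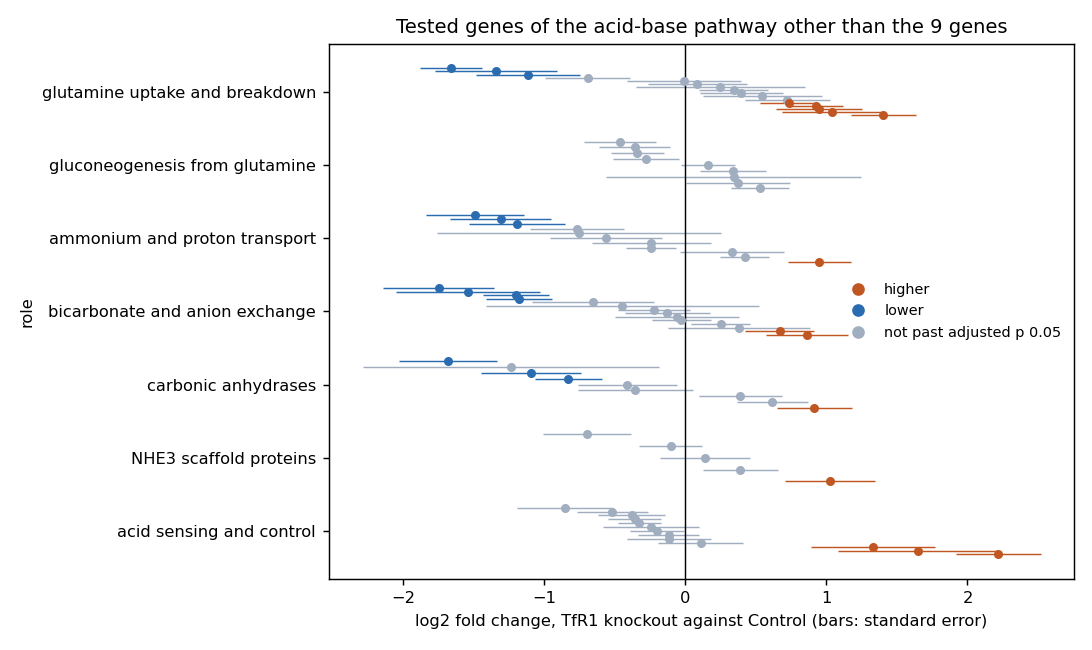
Log2 fold change of TfR1 knockout against Control (horizontal axis, bars are standard errors) for the 77 tested genes of the pathway other than the 9, by role. The 13 higher genes are orange and the 13 lower blue at a DESeq2 adjusted p under 0.05, and Edn1 lies farthest to the right at 2.22.

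Some markers of nephron segments and of other cells also differed between the groups, in both directions, and their part in the values above was not tested. Counts are at a DESeq2 adjusted p under 0.05. Of 15 proximal tubule markers, 2 rose and 5 fell (median log2 fold change -0.57), and their summed normalized counts ran from 127898 (replicate 3) to 323234 in Control and from 71082 to 114957 in the knockout. Kap made up much of these sums (46135 to 158797 in Control, 5892 to 11842 in the knockout), and without it they overlapped, at 81763 to 164692 and 65190 to 103116. Of 7 thick ascending limb markers, 7 fell, and 3 of 5 distal convoluted tubule markers fell. Of 8 principal cell markers, 4 rose, and their sums ran from 11057 to 21150 in Control and from 38570 to 66520 in the knockout. Without Aqp2, which held 17805 to 50719 normalized counts in the knockout, they ran from 8648 to 15507 and from 15524 to 20765. Of 14 intercalated cell markers, 1 rose and 5 fell, with sums of 22341 to 34727 and 24298 to 29778. Of 9 macrophage markers, 6 rose (sums 2540 to 4083 and 6000.4 to 9173). Of 5 podocyte markers, 1 rose, and of 3 tested red blood cell markers 1 fell, with the globin genes Hba-a1, Hba-a2, Hbb-b1 and Hbb-b2 at 0 in every library. Slc4a1 is in both the intercalated and the red blood cell list.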

How the data were processed

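Whole-kidney poly-A RNA libraries (3 Control, 3 TfR1 knockout) were grouped by their labels. Per the labels and the study's methods, the authors called bases with CASAVA 1.8.2, trimmed reads with Trimmomatic, aligned them to mm9 with TopHat 2.0.11 and deposited raw read counts per gene from HTSeq, with no normalization; the annotation and the strand setting are not given in the sources used here. Totals were 16591156 to 22898008 counts per library, and each group had 3 libraries.

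The comparison was fitted on all genes with DESeq2 1.42.0 in R 4.3.3 (Wald test, median-ratio size factors, Benjamini-Hochberg adjustment, independent filtering at 0.05, no covariate), as the study names DESeq2. A gene passed at an adjusted p under 0.05. Alternatives were edgeR 4.0.16 (quasi-likelihood, TMM), TMM and total-count scaling, a minimum of 10 counts in 3 libraries, a 2-fold threshold, the replicate block and leaving out each library. Fits were tested on simulated data. The 9 genes, the pathway and marker lists, and the promoter motifs were chosen with earlier results of these data known. Named pathway genes were Glul, Rhcg, Slc9a3r1 and Hnf4a, and up to 3 higher and 3 lower passing genes per role whose mean reached 20 normalized counts; Lrp2, Slc22a6, Kap, Aqp2, Slc26a4, Slc25a22 and G6pc were added after their values were seen. Coordinates and exon lengths are from the GENCODE annotation of mm9, and promoter windows from RefSeq GRCm38.p6. Some genes that the rule names are not reported here.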

Additional observations from a re-analysis of the deposited data

How the results depend on the processing

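Over all genes, 1277 were higher and 1186 lower. edgeR gave 493 and 428, a 2-fold threshold 728 and 736, and leaving out 1 library 664 to 1531 higher (lowest without Control replicate 1, highest without TfR1 knockout replicate 1) and 575 to 1674 lower (the same 2 libraries). Of pathway genes, 13 were higher and 13 lower. edgeR gave 4 and 6, the 2-fold threshold 6 higher and 12 lower, and leaving out 1 library 5 to 11 higher and 6 to 18 lower (lowest without Control replicate 1, highest without Control replicate 3). The cause of these shifts was not tested. Tfrc ran from -0.095 to 0.30 with 1 library left out. It was -0.095 without Control replicate 3 and -0.072 without TfR1 knockout replicate 1, and reversed only there among these fits. With 1 library left out, Glul ran from -0.067 (without TfR1 knockout replicate 2) to 0.82 and Slc9a3r1 from -0.15 (without Control replicate 3) to 0.38, reversed at the low ends. Some named pathway genes that did not pass with all libraries passed in a fit that left 1 library out. Rhcg did so without Control replicate 3 (DESeq2 adjusted p 0.00320) or TfR1 knockout replicate 1 (0.0357), and Hnf4a without Control replicate 3 (0.0236). Of 12 named higher pathway genes, 4 kept their call in all 11 alternative fits (among them Slc1a5, Slc12a2 and Edn1). Of 12 named lower ones, 5 did (Slc7a7, Atp12a, Slc4a1, Slc4a9 and Car9). The 2-fold threshold was not among these 11, and Slc12a2, at 1.93-fold, lies under it. Total-count scaling moved the median of all genes to -0.098. The 9 genes kept their direction in every fit, and Car14 moved most, to -1.19 without TfR1 knockout replicate 2.

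Same-numbered replicates correlated at -0.038, 0.055 and 0.090 in their deviations, and differently numbered ones at -0.22 to 0.097. With so few libraries, these values cannot show whether same-numbered libraries shared a litter or batch. With the replicate block, 1085 genes were higher and 1087 lower, pathway genes 14 and 16, the median of the 9 genes 0.46 and Tfrc 0.12.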
